A study of Drosophila melanogaster with 3 samples.

Results

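The genes jing, sbb and px are 3 long developmental regulators of Drosophila melanogaster, and together they held 73 of the 9531 fkh peak summits of the authors' optimal list (0.766%). They are 3 of 13945 protein-coding genes, and they were chosen by the number of summits in or near them and by the signals of those summits, so their counts, signals and ranks are descriptions and carry no test. A summit, the point of highest signal in a peak, was assigned to a gene if it lay in the gene body or within 5 kb of it. Binding was mapped by ChIP-seq in 1 group of 3 biological replicates of whole prepupae, each of pooled males and females, with no treatment. All flies carried a transgene, fkh with green fluorescent protein at the C terminus, and an anti-GFP antibody was used on sonicated chromatin. The labels do not say whether untagged fkh remained, and their age of 24 days is longer than development to this stage takes, so its unit is in doubt. With whole animals, the cells from which a peak came are unknown.

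fkh gave the forkhead (Fox) family its name. The family's DNA-binding domain recognises short A- and T-rich sites, and fkh is known for its part in forming the salivary glands and the gut. jing encodes a zinc finger protein related to vertebrate AEBP2, a cofactor of Polycomb repressive complex 2, and is needed for border cell migration and for the trachea and the midline of the nervous system. sbb (scribbler, also called brakeless) encodes a nuclear corepressor needed for photoreceptor axon targeting and for patterning of the wing, and px (plexus) encodes a nuclear protein that keeps vein fate out of the spaces between wing veins. Genes of this kind often have several promoters and long introns that hold regulatory elements.

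All 3 genes lie on chromosome arm 2R (dm6 coordinates, 1-based). jing (FBgn0086655) spans 6502006 to 6621792 on the plus strand, a length of 119.8 kb with 4 annotated transcripts. sbb (FBgn0285917) spans 18278198 to 18357296 on the minus strand, 79.1 kb with 7 transcripts. px (FBgn0003175) spans 22494297 to 22562065 on the minus strand, 67.8 kb with 6 transcripts.

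jing held 31 optimal summits, of which 29 lay in the gene body. sbb held 21, of which 19 lay in the body, and px held 21, all in the body. The 4 summits outside the bodies all lay upstream of the first transcription start site, 2 at jing and 2 at sbb. Over all protein-coding genes the median was 1 summit, 56.6% had at least 1 and 0.100% (14 genes) had at least 21. By this count jing stood at place 3, and sbb and px shared place 11. The rule used these counts, so nothing is read from their place against the background. The next summits beyond the 5 kb limit were at 6628428, 1636 bp past the window downstream of jing with a signal of 635, and at 22570003, 2938 bp past the window upstream of px with a signal of 656. The summits just inside those edges, at 6613962 and 22561989, had signals of 233 and 214, and the other 4 edges had no further summit within 30 kb.

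Several summits can share a peak interval. The 31 summits of jing lay in 28 distinct intervals, the 21 of sbb in 17 and the 21 of px in 18. Of all neighbouring pairs of summits, 12 were within 300 bp of each other. The list called on the 3 replicates together, which also holds background regions, had 86 regions at jing, 62 at sbb and 46 at px. Of these pooled regions, 36.0% at jing, 33.9% at sbb and 45.7% at px were in the optimal list, and the strongest that were not had signals of 153, 153 and 159.8, just under the lowest signal of the optimal list (160).

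Each gene was then compared with the protein-coding genes of like length, those for which the longer of the pair was at most 25% longer than the shorter. jing had 31 summits, against a median of 4 (interquartile range 1 to 8.25, highest 39) in 64 genes of like length, and 63 of the 64 had fewer. sbb had 21, against a median of 4 and a highest of 34 in 121 genes, of which 117 had fewer, 2 had as many and 2 had more. px had 21, against a median of 3 and a highest of 28 in 155 genes, of which 150 had fewer, 2 had as many and 3 had more. No summit at all was found at 15, 32 and 41 genes of the 3 comparison sets. Per 10 kb of gene and flanks the members had 2.39, 2.36 and 2.70 summits for jing, sbb and px, against medians of 0.326, 0.391 and 0.443 in their comparison sets.

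**Figure D1:**
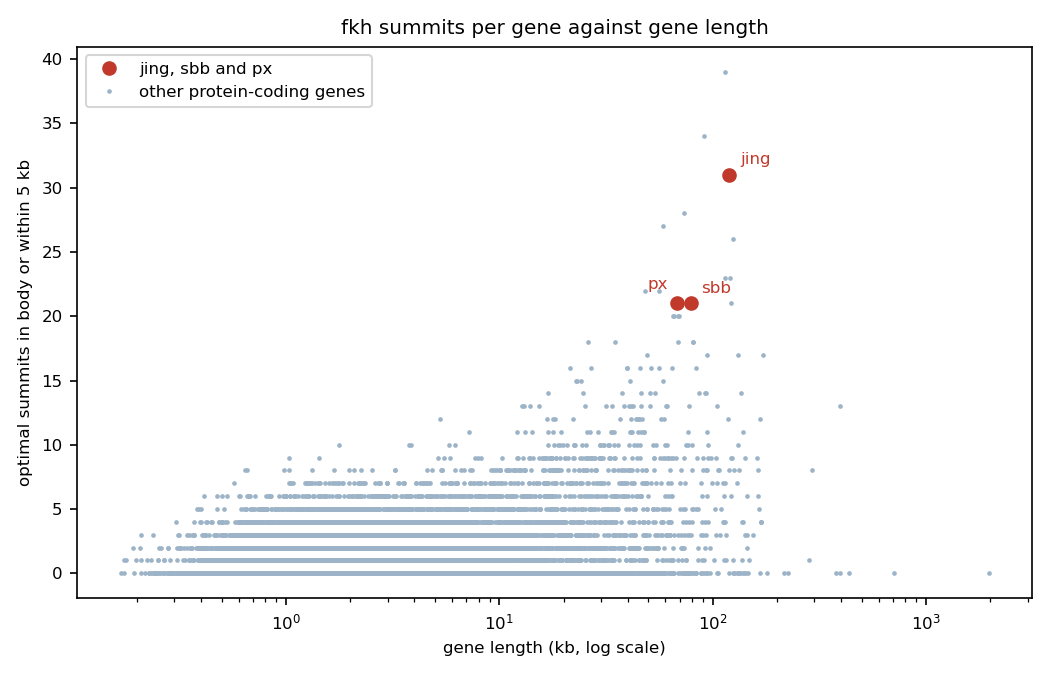
Number of optimal summits in the gene body or within 5 kb (vertical axis) against gene length in kb (horizontal axis, log scale) for 13945 protein-coding genes, with jing, sbb and px as large red points. jing lies at 119.8 kb with 31 summits and sbb and px at 79.1 and 67.8 kb with 21 each, while the genes of like length have medians of 4, 4 and 3.

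Of the genes of like length to jing, Eip75B, an ecdysone-induced nuclear receptor gene, was the 1 with more summits (39). CG1677 followed with 26, the overlapping genes Glut4EF and CG46467 had the same 23 summits, and Svil had 21. In the set of sbb, bun, of the TSC22 family of leucine zipper proteins, had 34 and SNF4Agamma, the gamma subunit of AMP-activated kinase, had 28. mtd had 21 summits there, as did px itself, and Tlk, a Tousled-like kinase gene, had 20. In the set of px, SNF4Agamma had 28, shn, a zinc finger factor of Dpp signalling, had 27 and Pdp1, a PAR-domain bZIP gene, had 22. mtd and sbb each had 21 summits in that set, and mam, a coactivator of Notch, had 20.

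Most of the summits were of ordinary strength for the list. The authors' signal is a score in unstated units that ran from 160 to 6081 over the optimal list with a median of 294. The 73 member summits had a median of 299.6, and 37 of them lay above the list's median. By gene the median signal was 335 at jing, 325 at sbb and 273 at px, against medians of 275, 291 and 288 over the genes of like length that had a summit. Of the 73, 1 was among the 100 strongest peaks of the list and 6 among the 500 strongest.

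The strongest member summit, at 18337194 in the first intron of sbb, had a signal of 3754 and ranked 3 of all 9531 peaks. Its interval ran from 18336579 to 18337864, and the summit lay 20.1 kb downstream of the first transcription start site (TSS). It was the strongest of the 3827 summits of the list that lay in introns away from a TSS, and the next intronic summit ranked 6 with a signal of 2909. In replicates 1, 2 and 3 it ranked 3, 4 and 4, a mean rank of 3.67 ± 0.577 (SD, n = 3). Replicate ranks here and below are the best of any overlapping region, so a summit can take the rank of a stronger neighbour. This summit carried 33.0% of the summed signal of sbb and was 4.62-fold stronger than the gene's second. Other sbb summits were far weaker: the second, at 18357494 in the promoter, had a signal of 812 and ranks of 758, 794 and 644, and the third, at 18350099 in the first intron, had 749.9 and ranks of 881, 1281 and 1086.

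The strongest summit of px, at 22514294, had a signal of 1578 and ranked 101 in the list and 120, 86 and 166 in the replicates, a mean of 124 ± 40.1 (SD, n = 3). It lay 195 bp upstream of the gene's most 3′ promoter. The next, at 22546827, had a signal of 1012 and ranks of 274, 798 and 408, and it lay at the middle promoter. Intronic summits at 22510944 and 22538269 followed with signals of 889 and 885 and with ranks of 462, 823 and 1077 and of 431, 1126 and 689. By the nearest replicate summit within 250 bp instead, 22538269 ranked 2054 in replicate 2. The signal of px was thus spread over several strong sites, with 16.1% of its sum in the strongest and a 1.56-fold step to the second.

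jing had no summit of that rank. Its strongest, at 6524923 in the first intron, had a signal of 1028 and ranked 420 in the list and 222, 741 and 1125 in the replicates, a mean of 696 ± 453 (SD, n = 3). The following summits, at 6512493, 6606051 and 6613762, had signals of 986, 967 and 898. Their ranks were 326, 735 and 737 for 6512493, then 344, 641 and 876 for 6606051, then 750, 702 and 416 for 6613762. These 4 summits lay from 10.5 to 111.8 kb from the first TSS, with overlapping ranges of replicate ranks, so their order is not resolved by the replicates. The strongest held 8.02% of the gene's summed signal.

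Below these, each gene had a tier of moderate intronic summits whose best overlapping regions stood well within the 9531 strongest of each replicate. In jing, 6546517 had a signal of 699 and ranks of 824, 1776 and 1354, and 6603182 had 669.6 and ranks of 1052, 1400 and 2008. In sbb, 18354243 had 591 and ranks of 1362, 2236 and 1654, and 18351974 had 489 and ranks of 1756, 3297 and 2082. In px, 22511774 had 776 and ranks of 501, 1341 and 799, and 22542328 had 516 and ranks of 1189, 2751 and 1708. By the nearest replicate summit within 250 bp instead, 22542328 ranked 10222 in replicate 3, outside the 9531 strongest. By that measure 18351974 ranked 4218 in replicate 2. By overlapping regions, replicate 1 gave the best rank of all 6 and replicate 2 the lowest of 5. The exception was 6603182, which stood lowest in replicate 3. The weakest summits of the genes had signals of 161, 162 and 171 in jing, sbb and px, near the lower end of the list.

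**Figure D2:**
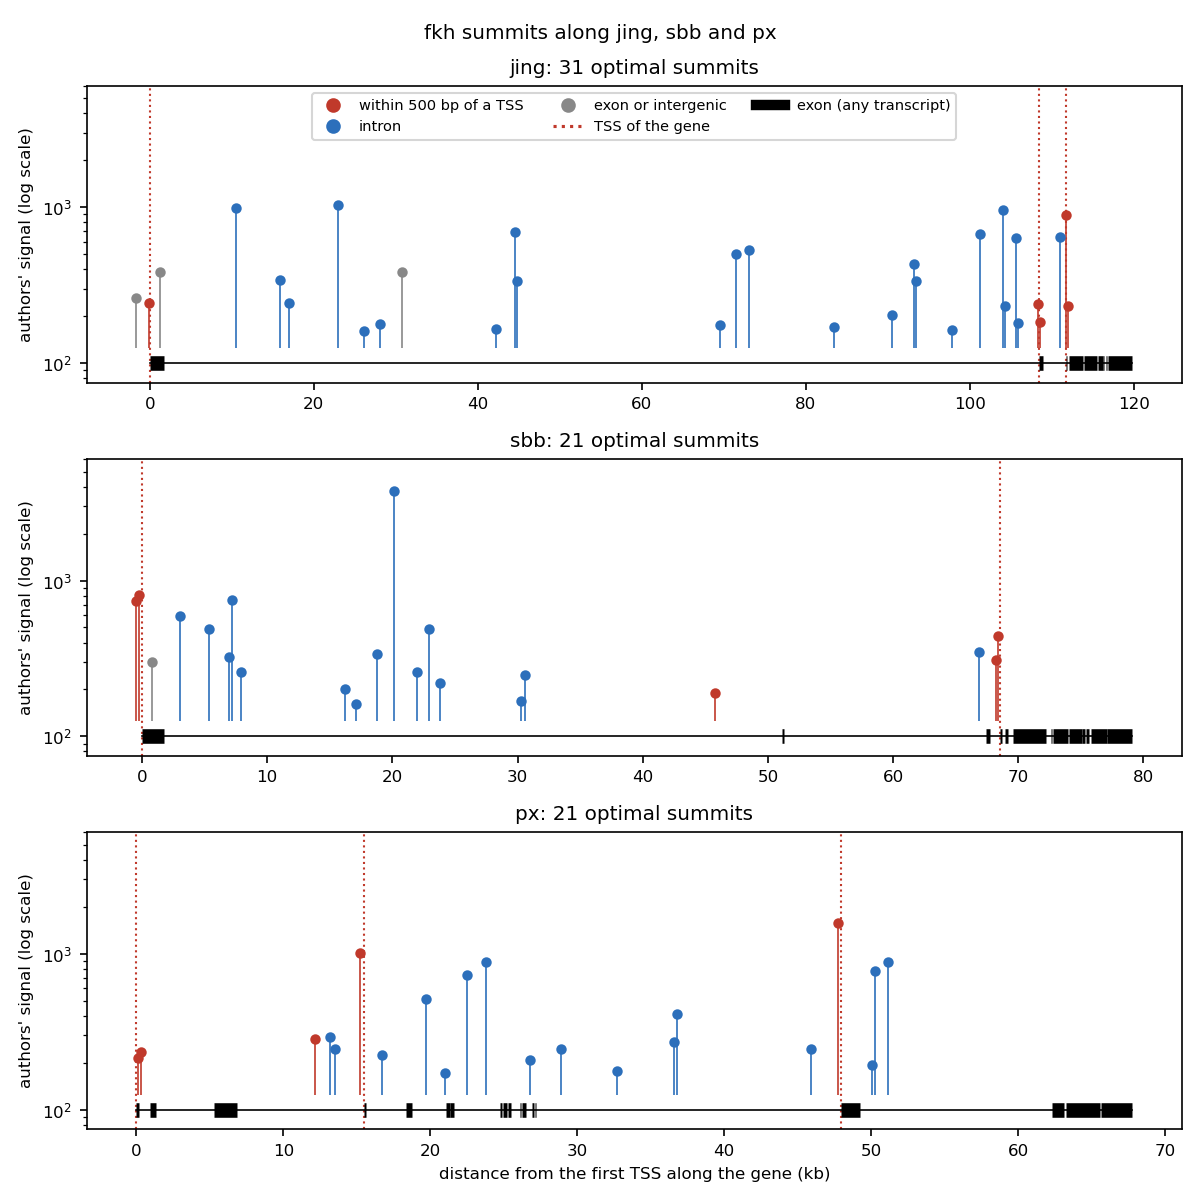
Signal of each optimal summit (vertical axis, authors' score, log scale) against distance from the first TSS in kb (horizontal axis) for jing, sbb and px, with the annotated TSSs and exons below. Summits run along the first intron of jing, concentrate in the 5′ portion of sbb around the summit of 3754 at 20.1 kb, and stop at 51.1 kb in px.

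Intronic sites made up most of the members' summits. Each summit was assigned to the first class that applied: within 500 bp of a TSS (promoter), 5′ UTR, coding sequence, 3′ UTR, other exon, intron or intergenic. Introns away from a TSS held 54 of the 73 member summits (74.0%, exact Clopper-Pearson 95% interval 62.4% to 83.5%), against 39.9% of the other 9458 optimal summits and 40.2% of the whole list. Promoters held 15 (20.5%), against 44.6% of the others. Intervals here and below cover counting error only, and summits of a gene are not independent. By gene the intronic share was 74.2%, 71.4% and 76.2% for jing, sbb and px, against a median of 66.7% in each of the 3 sets of like length, so a high intronic share was also found at other long genes.

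The remaining 4 summits fell elsewhere. At jing, 1 summit (6503227, signal 385) lay in the first coding exon, 1 (6532710, signal 387) in the exon of lncRNA:CR43905 inside the first intron, and 1 (6500372, signal 262) in intergenic sequence. At sbb, 1 summit (18356454, signal 299.6) lay in the 5′ UTR. Coding sequence was a rare place for a summit, with 39 in the whole list. Signals did not separate the members' classes: the 54 intronic summits had a median of 309 and the 15 promoter summits 286, against 282 and 322 over all intronic and promoter summits of the list.

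In jing, the first intron (6503689 to 6610486, 106.8 kb) took 24 of the 31 summits by position, or 2.25 per 10 kb. In 4 equal stretches of the gene body taken from the first TSS there were 7, 4, 4 and 14 summits, so the last stretch, which holds the internal promoters, had the most. Joining summits with gaps of at most 2 kb gave 18 clusters, of which 9 held more than 1 summit. The fullest cluster had 4 summits over 1.77 kb, from 104.0 to 105.8 kb, ahead of the internal promoters, with a highest signal of 967. The longest gap without an optimal summit was 24.8 kb, between 44.7 and 69.5 kb, and it held 4 regions of the pooled list.

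In sbb, the first intron (18306136 to 18355499, 49.4 kb) took 15 of the 21 summits, or 3.04 per 10 kb. The second intron (16.2 kb) had a single summit, with a signal of 347. The same 4 stretches of the body held 9, 6, 1 and 3 summits, so binding lay mainly toward the 5′ end. Of 7 clusters, 5 held more than 1 summit, and the fullest had 7 summits over 7.65 kb, from 16.2 to 23.8 kb, with the summit of 3754 among them. The other 6 summits of that cluster were weak to moderate, with signals from 162 to 491. Gaps of 15.2 and 21.0 kb without an optimal summit lay on either side of a lone summit at 45.8 kb, and they held 13 and 3 regions of the pooled list.

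In px, summits were shared among introns of moderate size. Intron 14 (20.7 kb) held 6, intron 3 (8.66 kb) held 4 and intron 15 (13.1 kb) held 3, at 2.89, 4.62 and 2.29 per 10 kb. The 4 stretches held 7, 7, 6 and 1 summits, and the last 16.6 kb at the 3′ end held none, with 1 region of the pooled list there. Of 9 clusters, 6 held more than 1 summit, and the fullest had 5 summits over 4.57 kb around the middle promoter. The next had 4 summits over 4.06 kb, from 19.7 to 23.8 kb with a median signal of 624, and 3 summits over 1.05 kb from 50.1 to 51.1 kb had a median of 776. Median spacing between neighbouring summits was 1617 bp in px, 1324 bp in sbb and 2393 bp in jing.

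Each of the 8 annotated promoters of the 3 genes had a summit within 500 bp, and in each gene they differed in signal. Over the 1199 protein-coding genes with at least 2 promoters 2 kb or more apart, 17.8% had a summit at 2 or more of them and 9.76% at all of them. Among the 143 such genes of like length to a member the shares were 28.0% and 6.29%. Many of these genes had no promoter summit at all. Of the 1199, 656 had a summit at any promoter and 214 at 2 or more, and of the 143, 85 and 40 did.

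In jing, the internal promoter at 6613768, 111.8 kb into the gene, had the strongest promoter summit, with a signal of 898 only 6 bp from the TSS. The first promoter (TSS 6502006) had 243 and the other internal promoter (TSS 6610487) had 239. In replicates 1, 2 and 3 the promoter at 6613768 ranked 750, 702 and 416, against 5913, 6005 and 8043 for the first promoter and 7607, 4807 and 9502 for the other internal one. The ranges of the first promoter and of the strong one did not overlap, while those of both weak promoters did. The annotation gives the transcript of the first promoter a coding sequence of 1744 amino acids that starts at 1.03 kb. Those of both internal promoters start their coding sequence at 112.2 kb and encode 1471 or 1486 amino acids, so the strong site stands at a promoter of the shorter forms.

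In sbb, the first promoter (TSS 18357296) was the stronger, with a signal of 812 at 198 bp upstream and replicate ranks of 758, 794 and 644. The internal promoter (TSS 18288761), 68.5 kb into the gene, had 441 and ranks of 2163, 2917 and 4492, which did not overlap those of the first. A start of CG14502 lies within 500 bp of the internal summits, so they cannot be given to sbb alone. Coding sequence starts at 67.7 or 68.7 kb in all 7 transcripts, so the first promoter, the first intron and the summit of 3754 lie ahead of every annotated coding start of the gene. Both promoters are annotated with forms of 929 and 2302 amino acids, and the first also with forms of 939, 2312 and 2330.

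In px, the order was the reverse of that in sbb. The first promoter (TSS 22562065) had a signal of 235 and replicate ranks of 6446, 4844 and 4877. By the nearest replicate summit within 250 bp instead, its strongest summit, at 22561771, ranked 7396 in replicate 3. The middle promoter (TSS 22546558, at 15.5 kb) had 1012 and ranks of 274, 798 and 408, and the most 3′ one (TSS 22514099, at 48.0 kb) had 1578 and ranks of 120, 86 and 166. The 3 ranges did not overlap, so the summits became stronger from the first to the last promoter in every replicate. Each promoter has a coding start of its own, with 1916 to 1995 amino acids from the first, 1535 from the middle and 944 from the last. A start of CG11362 lies within 500 bp of 1 summit of the first promoter (22561989, signal 214).

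**Figure D3:**
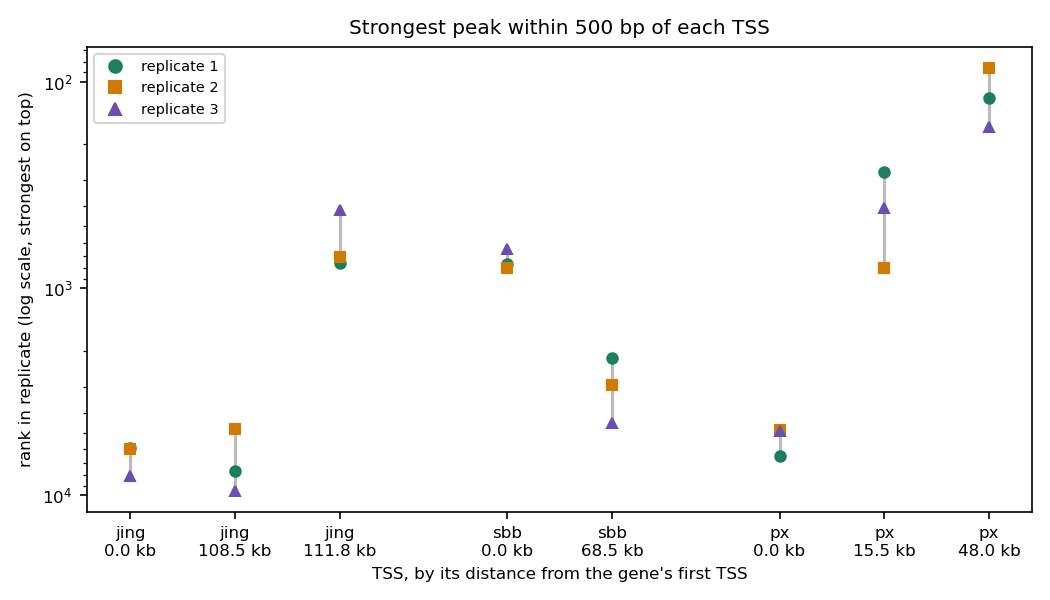
Rank in replicates 1, 2 and 3 (vertical axis, log scale, strongest on top) of the strongest summit at each of the 8 promoters of jing, sbb and px, ordered from the first TSS inward. The last promoter ranks above the first in every replicate in jing and px, and below it in every replicate in sbb.

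A stronger internal promoter was no rarity in the list. Of the 183 genes with a summit at the first promoter and at another, 104 (56.8%) had the stronger one at another promoter, and among genes of like length 12 of 23 (52.2%) did. Starts of 19 other genes lie inside the members or within 5 kb of them, and 5 had a summit within 500 bp: lncRNA:CR46075 beside the first promoter of jing, CG14502 and Tango8 in sbb, gas in px and CG11362 beside px. The summit by Tango8 had a signal of 190.0 and the summit by gas one of 286. None of the strongest 3 summits of any member lay within 500 bp of the start of another gene.

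The 3 replicates ranked the members' peaks in a similar order. A peak was taken as found in a replicate if it overlapped 1 of that replicate's 9531 strongest regions, the number in the optimal list. By this measure 53 of the 73 peaks (72.6%, exact Clopper-Pearson 95% interval 60.9% to 82.4%) were found in all 3 replicates, against 72.9% of the other optimal peaks and 72.9% of the whole list. A further 13 were found in 2 replicates and 7 in 1. jing had 21 of 31 peaks in all 3 replicates, sbb 16 of 21 and px 16 of 21. Among the 9531 strongest regions of replicates 1, 2 and 3 there were 31, 25 and 22 at jing, 21, 24 and 21 at sbb and 22, 21 and 19 at px. So replicate 3 gave the fewest regions at jing and px, and the number at sbb was close to even.

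Replicate ranks of the 73 peaks had Spearman's rho of 0.889 between replicates 1 and 2, 0.832 between 1 and 3 and 0.838 between 2 and 3. For the other optimal peaks rho was 0.782, 0.800 and 0.808, over 9320 to 9369 peaks. These are correlations across peaks, of which some share an interval, and all lists were called against 1 shared control. The median rank of the 73 was 2492, 2917 and 4492 in replicates 1, 2 and 3, against 4125, 4252 and 4410 over the whole list. At jing the medians were 1969, 2745 and 6210, so its peaks stood lower in replicate 3 than in the other two.

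Some intronic peaks were placed far apart by the replicates, the strongest of jing (222, 741 and 1125) among them. The jing summit at 6592524, with a signal of 204, ranked 5250, 13930 and 17899. Another jing summit, at 6595223 with a signal of 436, ranked 1969, 2620 and 10446. Its neighbour at 6595424, with 335, took the same ranks by overlap. The nearest replicate summits within 250 bp of 6595424 ranked 3392, 11976 and 15266. The sbb summit at 18334396, with a signal of 491, ranked 1825, 1639 and 8452, and the px summit at 22545346, with 223, ranked 6601, 4339 and 18431. In each of these cases replicate 3 gave the lowest place. The px summit at 22541056, with a signal of 171, had its lowest place in replicate 2, with ranks of 8527, 21217 and 6663. Over the members, the lowest replicate rank of a peak divided by its highest had a median of 2.16 at jing, 1.88 at sbb and 2.31 at px.

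**Figure D4:**
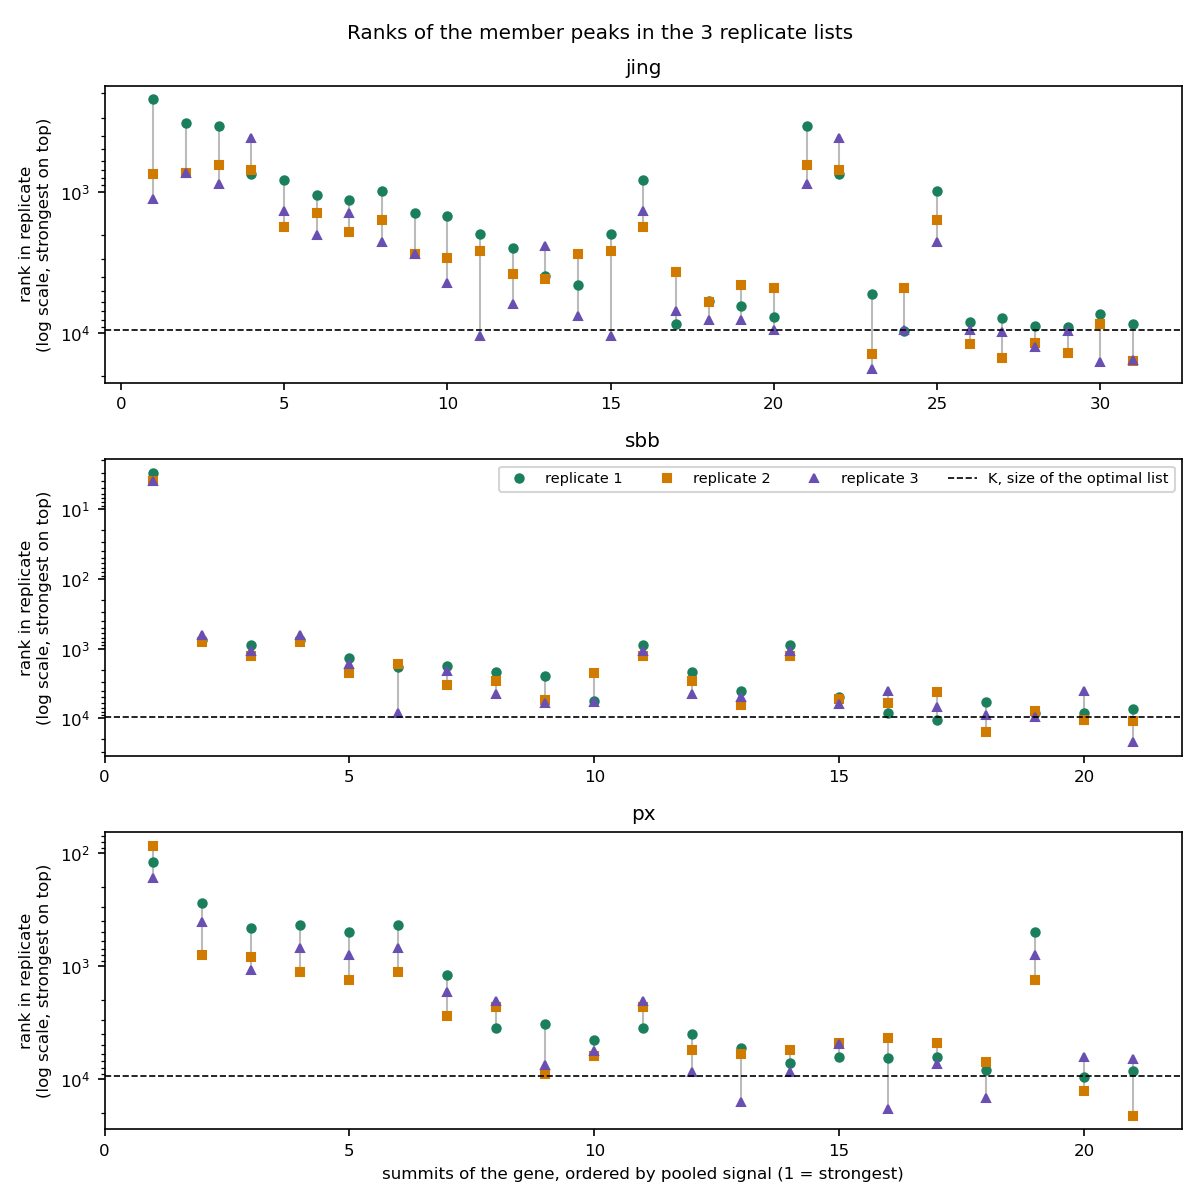
Rank of each member peak in replicates 1, 2 and 3 (vertical axis, log scale, strongest on top), with summits ordered by the signal of the optimal list and the dashed line at rank 9531. The sbb summit of 3754 holds ranks 3, 4 and 4, and summits that share an interval with a stronger one share its ranks, which gives the high points far to the right.

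The forkhead word was searched on both strands within 50 bp of each summit, and in flanks of the same size 500 bp to either side. The word is TNTTTNN with A or G at its second and sixth bases and C or T at its last. It was found at 51 of the 73 member summits (69.9%, exact Clopper-Pearson 95% interval 58.0% to 80.1%) and in 33 of their 146 flanks (22.6%, 16.1% to 30.3%). The other optimal summits had it at 58.4% and their flanks at 25.2%, and the whole list at 58.5% of summits. By gene it was found at 20 of 31 summits in jing, 16 of 21 in sbb and 15 of 21 in px. The flanks held it in 14.5%, 16.7% and 40.5% of windows for jing, sbb and px, so the sequence beside the px summits was richer in the word than that beside the others.

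The members' interval for all summits contains the 58.4% of the others. Intronic summits of the members had the word in 38 of 54 cases (70.4%), against 64.7% of other intronic summits, and promoter summits in 9 of 15 (60.0%), against 51.4%. Member summits above the list's median signal had it in 30 of 37 cases (81.1%), against 64.0% of the others above it. Below the median the share was 58.3%, against 52.9%. The exact 95% intervals of the intronic (56.4% to 82.0%) and promoter (32.3% to 83.7%) shares contain the values of the others, and that of the summits above the median (64.8% to 92.0%) begins just over theirs. No test was made, since the summits were chosen with their genes. Genes of like length that had a summit gave a median share of 66.7% in each set, close to the 64.5%, 76.2% and 71.4% of jing, sbb and px.

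A second copy of the word was found at part of the summits of each gene, most often in px. At least 2 words were found at 26 of 73 member summits (35.6%), against 23.4% of the others, with 7 of 31 in jing, 8 of 21 in sbb and 11 of 21 in px. The sbb summit of 3754 had 4 words within 50 bp, the nearest 2 bp from the summit, and it was the only member with so many. In the whole list 186 summits (1.95%) had 4 or more. Among the strongest summits of the 8 promoters, 7 had at least 1 word, and strong and weak ones overlapped in number. In jing, the summit of 898 had 3 words, the nearest at 11 bp, the summit at 6610311 with a signal of 239 had 2, the nearest at 1 bp, and that at 6501912 with 243 had none. In sbb, the summits of 812 and 441 had 1 each, at 5 and 20 bp. In px, the summits of 1578 and 1012 had 2 each, the nearest at 9 and 34 bp, and that of 235 had 1, at 44 bp.

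Words of other factors were also counted. CACACA, a CA repeat, was found at 6.85% of member summits (5 of 73), against 16.9% of the others. By gene it was at 1 of 31 summits in jing, 0 of 21 in sbb (exact upper limit 16.1%) and 4 of 21 in px (19.0%). The exact 95% interval of px (5.45% to 41.9%) contains the others' share, so the low share was not seen in px. GATAAG, the GATA factor word, was at 2.74% (exact 95% interval 0.334% to 9.55%), against 8.18%, which lies inside that interval. GAGAG, bound by GAGA factor, was found at 13.7%, against 16.9%, and CANNTG, the E-box of basic helix-loop-helix proteins, at 42.5%, against 43.3%. AGGTCA, a nuclear receptor half-site, was at 1.37%, against 1.60%. TGANTCA, the AP-1 word, was at 2.74%, against 2.52%, and ATCGATA, within the DNA replication-related element, at 0 of 73 (exact upper limit 4.93%), against 3.77%. A match is a description of the letters and not a bound site.

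**Figure D5:**
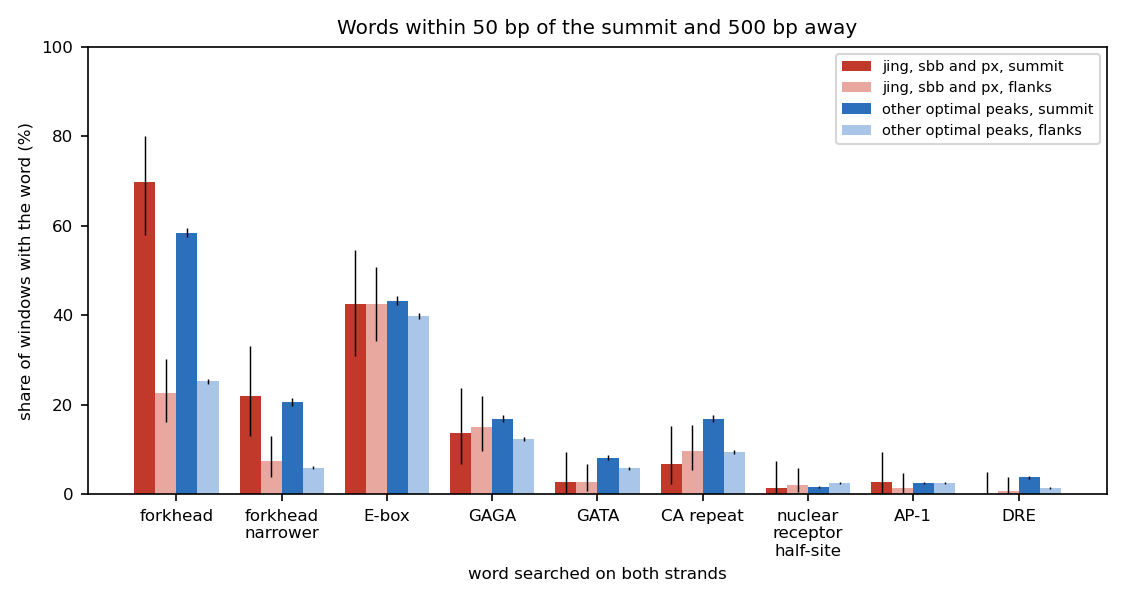
Percent of windows with each word (vertical axis) for the 73 member summits and their flanks (dark and light red) and, beside them, the other 9458 optimal summits and their flanks (dark and light blue), with exact 95% intervals as lines. The forkhead word stands at 69.9% of member summits and 22.6% of their flanks, against 58.4% and 25.2% for the others, and the members' intervals are wide for the other words.

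Genes that act in the same processes as the members often had summits too, though these lists were put together with earlier results of these data known. Of 34 genes of wing vein patterning other than the members, 31 (91.2%) had at least 1 optimal summit in the body or within 5 kb, with a median of 4 summits, against 56.6% and a median of 1 over all protein-coding genes. Besides sbb and px with 21 each, shn had 27 and cic, an HMG-box repressor downstream of Egfr signalling, had 16. The list drawn up for corepressors also holds genes of other kinds, Hr78 and mtsh. Of its 11 genes other than sbb, 10 (90.9%) had a summit, with a median of 3. Gug, the Atrophin gene, led with 10, followed by Smr with 9 and Sin3A with 6. Border cell and tracheal migration genes other than jing had a summit in 16 of 19 cases (84.2%), with a median of 4. Among them tai, a coactivator of the ecdysone receptor, had 16, Stat92E, the JAK pathway factor, had 14, and par-1, a polarity kinase, had 7.

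The genes listed around Polycomb repressive complex 2, with the Polycomb group genes Scm and pho among them, stood nearer to the background. Of 9 genes other than jing, 6 (66.7%) had a summit, with a median of 1. Scm had 5, Caf1-55 had 3 and Pcl had 3, and none of these summits lay in the body of the gene it was counted for. Gene length differed with the lists: the median was 4.25 kb for the Polycomb list, 8.18 kb for corepressors, 18.9 kb for migration and 19.7 kb for wing veins, against 2.17 kb over all protein-coding genes. The part of length in these shares was not tested.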

How the data were processed

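The members and all lists were chosen with earlier results of these data known. The 5 peak lists on the dm6 build that the authors deposited were used: 1 for each of the 3 replicates, 1 for the replicates together and the optimal list. Per the deposited file lists, the regions of the replicate and joint lists (30000 each) are peaks and background, called against a shared control, and the optimal list follows an IDR step. Not given in the sources used here: aligner, caller, IDR threshold. The deposited signal is a score in unstated units, and a deposited −log10 q value was not used. Read depth was not used here, so precision is known only for counts of summits.

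Signals of separately called lists are not on 1 scale, so replicates were compared by rank of signal, with the best rank among regions sharing at least 1 bp. Genes are those of Ensembl release 115 and sequence that of the release 6 assembly, whose chromosomes fit the lists' coordinates. TSSs within 100 bp were joined as 1 promoter. Samples form 1 group, so no groups of samples were compared, and no test was made on members chosen for their peaks. The genes named beside the members were, per length class, the 5 with the most summits and the 3 nearest in count, and, per list, up to 4 with the most, members counted. The comparison sets of sbb and px contain each other. Alternatives covered windows, overlap, strength, gaps, words and each replicate left out of the ranks. Tools were Python 3.11.15, pandas 2.3.3, NumPy 2.4.6 and SciPy 1.17.1, and the steps were tested on simulated data. The sequences at these loci are not reported here.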

Additional observations from a re-analysis of the deposited data

How the results depend on the processing

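The results are counts, shares, percentiles and mean ranks, which have no sign, so only the size of a change can be read. Taking only peaks above the list's median signal left 16 summits at jing, 13 at sbb and 8 at px, 11 clusters at jing, px at percentile 91.0 of its length class and the forkhead word at 81.1% of summits. Fewer peaks enter there by construction. The percentile of px was 96.8 in the report's comparison, 100 among the 50 genes nearest in length and 88.4 by regions of the pooled list, for which the cause was not tested. Cluster counts followed the gap allowed: gaps of at most 1 kb gave 13 at sbb and 16 at px, and gaps of at most 5 kb gave 8 at jing and 3 at px. Leaving a replicate out kept the lists as called and dropped only its ranks. Counts of summits and clusters then took peaks among the 9531 strongest regions of the remaining replicates. By this filter jing had 11 to 13 clusters, with 11 without replicate 1, since fewer peaks enter. The forkhead word was at 42.5% of member summits within 25 bp, 82.2% within 100 bp and 21.9% when narrowed to TGTTTA followed by C or T, against 36.8%, 77.0% and 20.6% over the list. The share of member peaks found in all 3 replicates was 31.5% when 50% of both regions had to be shared, 47.9% with the 9531 halved and 100% with all regions of each list. The share over the whole list was not computed at these settings, so these values have no background beside them. Of the other values 55 of 73 moved less than the criteria, as did 44 of 45 with a replicate left out of the ranks. Those 45 include the mean ranks of the strongest peaks, which cannot show stability. By construction, a mean over the remaining replicates lies within the SD of all 3 ranks. At jing this mean went from 696 (SD 453, n = 3) to 933 without replicate 1 and was still counted as below the criteria. Depth is unknown, so differences among peaks of similar rank cannot be resolved.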
